A study of Mus musculus with 3 samples.

Results

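The 10 genes described here belong to the interleukin-1 (IL-1) family: the cytokines Il1a, Il1b, Il33 and Il18, the antagonist Il1rn, the receptors Il1r1 and Il1rl1, the accessory chain Il1rap, and the inhibitory receptors Il1r2 and Sigirr. They were chosen as a family, and every H3K27ac peak within 100 kb of one of the gene bodies was taken from both deposited peak lists. H3K27ac is acetylation of histone H3 at lysine 27, a mark of active promoters and enhancers. Each peak was counted once where windows of neighbouring genes overlapped. This gave 79 of the 37765 untreated peaks and 88 of the 38793 post-caerulein peaks, in 7 separate loci. All 10 genes had at least 1 peak in their window, and 18332 of all 21887 protein-coding genes did.

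The peaks came from spheroids, three-dimensional cultures of pancreatic epithelial cells, of wild-type C57BL/6J mice. One culture group was derived from untreated mice and the other from mice after caerulein, a peptide related to cholecystokinin with which pancreatitis is induced in rodents. By the title of the series, the comparison concerns what an inflammation that has resolved leaves behind in the epithelium. Both cultures were labelled as grown in the same medium, which contained EGF, insulin, hydrocortisone, cholera toxin and pituitary extract. Age, the number of mice, pooling and the time between caerulein and culture are not given in the sources used here. There was 1 H3K27ac library per condition, so the values below carry no replicate error and no p-value. The read depth of the libraries is unknown, and whether it contributed to any difference was not tested.

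IL-1 alpha and IL-1 beta bind the receptor encoded by Il1r1, and IL-33 binds the receptor encoded by Il1rl1 (ST2). Both receptors pair with the accessory protein encoded by Il1rap and signal through MyD88 and IRAK kinases to NF-kB. Il1rn encodes a receptor antagonist, Il1r2 a decoy receptor without a signalling domain, and Sigirr an inhibitory receptor. IL-1 alpha and IL-33 are alarmins released by damaged epithelial and stromal cells, whereas IL-1 beta is made mainly by myeloid cells.

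Promoter sequences are shown for Il1a, where the lists differed at the start site, for its neighbour Il1b, whose start had no peak, and for both start sites of Il33, of which only the inner one lay under a peak. Each is the 250 bases before an annotated start (RefSeq, GRCm38.p6), written 5′ to 3′ on the strand of the gene. Capitals mark TATAAA on either strand and the AP-1 motif TGANTCA, which reads alike on both strands.
Il1a, minus strand, chr2:129309973-129310222: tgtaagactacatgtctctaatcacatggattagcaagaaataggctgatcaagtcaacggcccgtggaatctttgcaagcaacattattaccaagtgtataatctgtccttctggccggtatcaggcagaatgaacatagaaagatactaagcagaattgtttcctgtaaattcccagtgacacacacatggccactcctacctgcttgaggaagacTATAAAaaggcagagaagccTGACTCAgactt
Il1b, minus strand, chr2:129371140-129371389: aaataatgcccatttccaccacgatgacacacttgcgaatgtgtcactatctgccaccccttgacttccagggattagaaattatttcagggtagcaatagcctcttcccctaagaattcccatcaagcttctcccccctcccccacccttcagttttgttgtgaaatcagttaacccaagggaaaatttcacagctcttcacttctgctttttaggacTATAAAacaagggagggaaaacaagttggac
Il33 outer start, plus strand, chr19:29924863-29925112: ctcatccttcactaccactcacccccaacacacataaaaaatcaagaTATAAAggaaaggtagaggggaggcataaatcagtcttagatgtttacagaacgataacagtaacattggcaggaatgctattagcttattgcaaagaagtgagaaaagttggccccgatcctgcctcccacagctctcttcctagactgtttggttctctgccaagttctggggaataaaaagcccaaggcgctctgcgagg
Il33 inner start, plus strand, chr19:29945540-29945789: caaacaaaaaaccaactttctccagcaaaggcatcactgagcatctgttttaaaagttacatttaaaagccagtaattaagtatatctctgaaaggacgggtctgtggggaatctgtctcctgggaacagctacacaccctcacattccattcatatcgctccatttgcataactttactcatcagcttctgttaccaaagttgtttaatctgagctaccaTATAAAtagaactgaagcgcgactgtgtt
A TATAAA lay 32 to 27 bases before the Il1a start, 31 to 26 before the Il1b start and 29 to 24 before the inner Il33 start. At the outer Il33 start it lay 203 to 198 bases away. TGANTCA lay 12 to 6 bases before the Il1a start and, in the only other family match, 141 to 135 bases before the outer start of Il1rn. These letters are common: of 32851 windows of this length, 12.4% held TATAAA and 6.75% held TGANTCA. Of the 14 windows of the family, 5 held TATAAA and 2 held TGANTCA. The NF-kB motif, searched on both strands, was in 1 family window, the inner start of Il1r1, and in 7.25% of all windows. None of these matches shows that a factor was bound.

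Il1a, the IL-1 alpha gene (chromosome 2, 129299609 to 129310186), was the only family gene with a start site marked in 1 list alone. An untreated peak of 3218 bp (129307946 to 129311163) covered the start at 129309972. Its score, a value the authors give each peak and used here only for rank within a list, was 1006.55, higher than that of 56.7% of untreated peaks. After caerulein no peak touched the Il1a gene body, and the nearest to the start was 7353 bp away. The untreated peak fell in an 18.75 kb stretch without any post-caerulein peak. A start counts as marked here if a peak covered it or ended no more than 1 kb from it. Among 17492 protein-coding genes with a listed start, 0.978% were marked in the untreated list alone and 1.69% in the post-caerulein list alone, the latter including no family gene. With a window of 0 bp or 2.5 kb in place of 1 kb the numbers of marked family genes, 7 untreated and 6 post-caerulein, were the same.

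Beyond the start, 2 more untreated-only peaks lay near the ends of the window, at Slc20a1 and past Il1b, and 1 post-caerulein-only peak of 1508 bp lay on the Ckap2l side. The remaining peaks overlapped between the lists and were mostly narrower after caerulein. Of 7 peaks at the Il1a and Il1b locus that matched 1 to 1 between the lists, 6 were wider in untreated spheroids. The peak 16948 bp beyond the Il1a body was 8793 bp wide in untreated spheroids and was met after caerulein by separate peaks of 3978 and 3392 bp. Covered length, the part of a window that lies under peaks, was 38.9 kb in untreated and 28.1 kb in post-caerulein spheroids within 100 kb of Il1a. On the log2 scale, with 1 kb added to each value, this is a difference of -0.45. With weaker peaks removed, those below their own list's median score, it was -1.08, and within 50 kb it was -0.25.

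**Figure D1:**
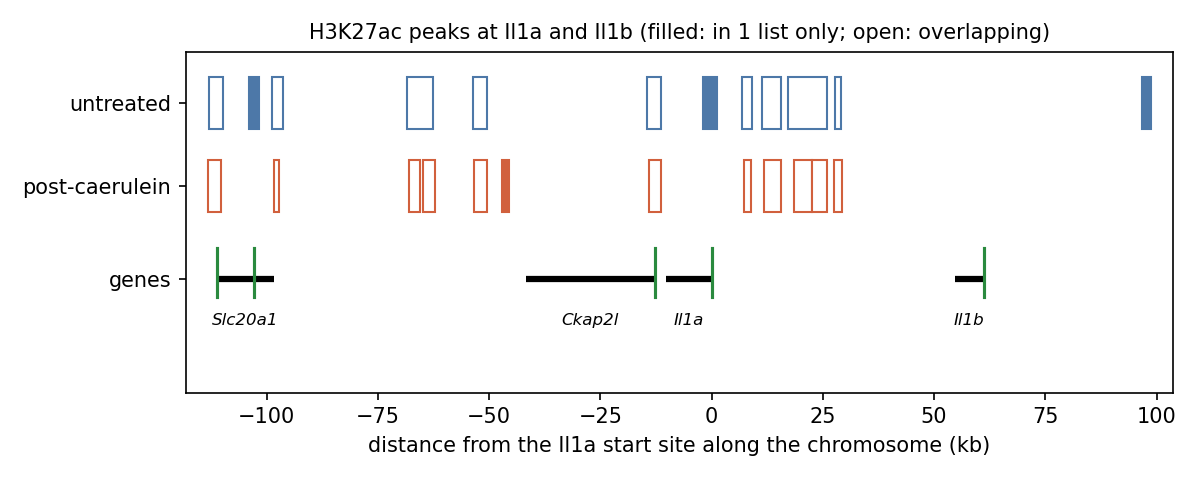
H3K27ac peaks of the untreated and post-caerulein lists along the Il1a and Il1b locus, by distance in kb from the Il1a start site. Filled boxes are peaks without overlap in the other list, open boxes overlap, black bars are gene bodies and green ticks annotated start sites. The filled untreated box at 0 is the 3218 bp peak over the Il1a start, and no box of either list touches Il1b.

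Il1b, the IL-1 beta gene (chromosome 2, 129364569 to 129371164), lay 54.382 kb beyond Il1a and had no peak within 10 kb in either list. The peak nearest to its start was 32086 bp away in untreated and 31780 bp away in post-caerulein spheroids. The 5 peaks of each list between the Il1a and Il1b bodies covered 17.2 kb in untreated and 14.4 kb in post-caerulein spheroids. On the far side of Il1b there was 1 peak, untreated-only, of 1885 bp with a score of 160.24. The Il1b window shared all of its peaks with that of Il1a, so its covered length (24.5 kb untreated, 17.1 kb post-caerulein, log2 difference -0.50) is not a separate measurement.

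Il33, the gene of the alarmin IL-33 (chromosome 19, 29925113 to 29960718), carried H3K27ac inside the gene in both lists. The outer start at 29925113 had no peak within 14745 bp in untreated or 14914 bp in post-caerulein spheroids. The inner start at 29945790 lay under a peak of 4966 bp in untreated spheroids, with a score above that of 75.1% of its list. After caerulein it lay under a peak of 2434 bp, with a score above that of 59.8% of its list, and a second peak of 1535 bp followed after a gap. A further peak in the body measured 3941 bp in untreated and 3803 bp in post-caerulein spheroids. All 4 matched pairs at the locus were wider in untreated spheroids. Coverage of the gene body was 8.91 kb untreated and 7.77 kb post-caerulein, and that of the whole window 19.9 and 17.2 kb (log2 -0.20). The only list-only peak was untreated-only and lay 99136 bp from the body, at the edge of the window.

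Il18 (chromosome 9, 50554700 to 50581841), whose product is an epithelial cytokine activated by caspase-1, was covered alike over its body in both lists. The peak at its start measured 1678 bp in untreated and 1701 bp in post-caerulein spheroids. The body held 4.68 kb of covered sequence without treatment and 4.53 kb after caerulein. The window as a whole differed more, with 60.0 kb in untreated and 81.4 kb in post-caerulein spheroids, and all 5 list-only peaks were post-caerulein-only. This difference lay on the side of lower coordinates, where 38.018 kb were covered in untreated and 58.685 kb in post-caerulein spheroids. Most peaks there were nearest to other genes, among them Plet1, Pts and Bco2. Counting only peaks nearest to Il18 gave a log2 difference of -0.056 in place of 0.43. None of the 5 list-only peaks reached the median score of its list.

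Il1rn, the receptor antagonist gene (chromosome 2, 24336860 to 24351491), had the largest covered share of its window in the family. Of its 214.632 kb window, 48.9% was covered in untreated and 46.6% in post-caerulein spheroids. The outer start at 24336860 lay under peaks of 7448 bp untreated and 7598 bp post-caerulein, both with a score of 3100, the value at which scores pile up in each list. At the inner starts, 24345291 and 24345371, a post-caerulein peak of 8160 bp (24340762 to 24348921) ran through both. In untreated spheroids this stretch was divided into peaks of 4282 and 3469 bp, and the starts lay 248 and 328 bp outside the nearer one. The body was covered over 13.2 kb in untreated and 13.6 kb in post-caerulein spheroids.

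The sides of Il1rn differed in direction. Towards Il1f10, another IL-1 family gene, 23.9 kb were covered in untreated and 30.0 kb in post-caerulein spheroids. Towards Psd4 and Pax8 it was 67.9 and 56.4 kb, including an untreated peak of 41408 bp that was met after caerulein by separate peaks of 18039 and 15555 bp. The log2 difference was therefore -0.070 within 100 kb but 0.11 within 50 kb and 0.12 within 10 kb. List-only peaks numbered 1 in each list, both below the median score.

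**Figure D2:**
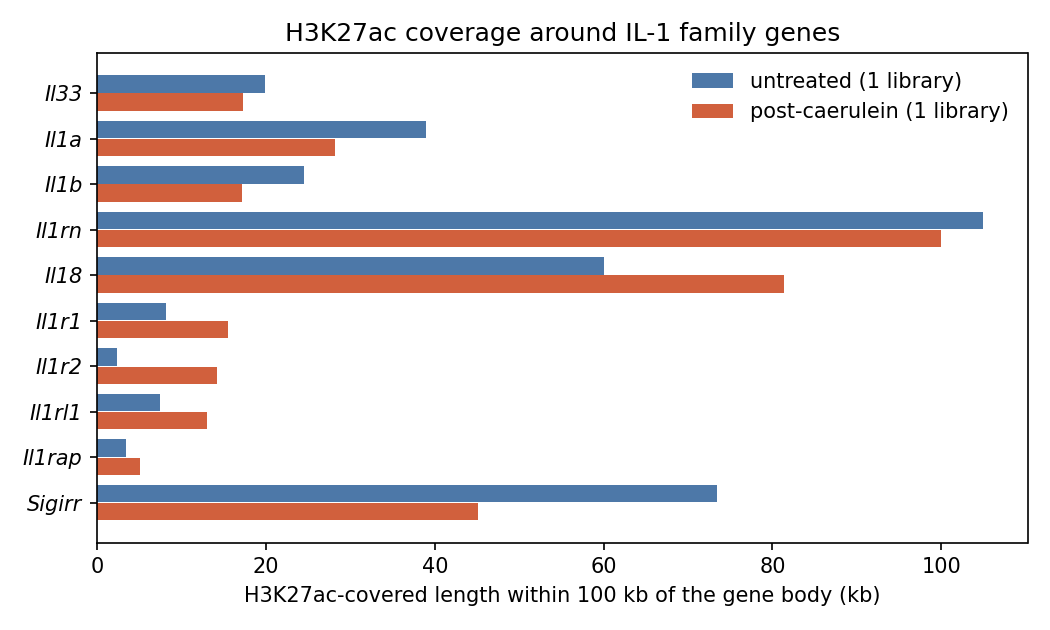
H3K27ac-covered length in kb within 100 kb of each IL-1 family gene body, with 1 bar for the untreated and 1 for the post-caerulein library and no error bars because each condition has 1 library. Il18, Il1r1, Il1r2, Il1rl1 and Il1rap had more covered length after caerulein (14.2 against 2.37 kb at Il1r2), and Il33, Il1a, Il1b, Il1rn and Sigirr had less.

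The genes Il1r2, Il1r1 and Il1rl1 lie in a row on chromosome 1 and were taken as a single locus of 580.727 kb (39984692 to 40565418). It held 7 untreated and 16 post-caerulein peaks, which covered 15.6 and 33.0 kb. Of these, 1 untreated and 10 post-caerulein peaks had no overlap in the other list. None of these list-only peaks reached the median score of its list.

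Il1r2, the decoy receptor gene (40084692 to 40125230), showed the largest ratio in the family. Its body held 0 kb under peaks in untreated spheroids and 5.36 kb after caerulein, from adjoining post-caerulein-only peaks of 1158 and 4202 bp (40105841 to 40106998 and 40107032 to 40111233). The wider of these had a score of 435.99, above that of 46.8% of its list. Neither list had a peak at the start site, 40086093, and the nearest was 19748 bp away after caerulein and 107921 bp away without treatment. A further 4 post-caerulein-only peaks of 1384 to 1869 bp lay between Il1r2 and Il1r1, and with the peaks in the body they fell in a 243.932 kb stretch without any untreated peak. Within 100 kb, 2.37 kb were covered in untreated and 14.2 kb in post-caerulein spheroids, a log2 difference of 2.17. With 5 kb added to each value the difference was 1.38. No peak in the Il1r2 window reached the median score in either list, so the difference rests on weaker peaks alone.

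Il1r1, which encodes the signalling receptor for IL-1 (40222480 to 40316201), was marked at both start sites in both lists. The outer start at 40225080 lay under peaks of 1606 bp untreated and 1797 bp post-caerulein. The inner start at 40266586 lay under peaks of 1824 bp untreated and 2085 bp post-caerulein. Another body peak measured 3428 bp in untreated and 3060 bp in post-caerulein spheroids. Body coverage was 6.86 and 6.94 kb. Within 100 kb, 8.18 kb were covered in untreated and 15.5 kb in post-caerulein spheroids (log2 0.85), with 5 post-caerulein-only peaks, all outside the body, of which 4 are those between Il1r2 and Il1r1. Within 10 kb the difference was 0.16, and without the peaks below the median score it was -0.025.

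Il1rl1, the IL-33 receptor gene (40404864 to 40465418), had no peak at either of its start sites, 40429570 and 40439629. A post-caerulein-only peak of 847 bp lay 2691 bp from the inner start, with a score of 50.98, close to the lowest score of that list (50.01). A shared peak lay across the end of Il1rl1 and the beginning of Il18r1, a subunit gene of the IL-18 receptor, and measured 4380 bp in untreated and 5120 bp in post-caerulein spheroids. Within 100 kb, 7.46 kb were covered in untreated and 13.0 kb in post-caerulein spheroids (log2 0.72). Within 50 kb the difference was 0.047. Farther out, post-caerulein-only peaks of 2190 and 1658 bp lay in Il18rap, the other IL-18 receptor subunit gene.

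Il1rap, which encodes the shared accessory chain (chromosome 16, 26581509 to 26730128), had few peaks over a long gene. Its start at 26581705 lay under a peak of 2054 bp in untreated and 2260 bp in post-caerulein spheroids. A second body peak measured 1356 bp untreated and 1669 bp post-caerulein. An additional one, of 1128 bp with a score of 63.32, was post-caerulein-only. Within 100 kb, 3.41 kb were covered in untreated and 5.06 kb in post-caerulein spheroids (log2 0.46).

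Sigirr, the inhibitory receptor gene (chromosome 7, 141091175 to 141100597), was covered by H3K27ac over its whole body in untreated spheroids (9.42 kb) and over 8.75 kb after caerulein. A single untreated peak of 14105 bp spanned it and reached into Pkp3 and Ano9, with a score above that of 64.4% of its list. The post-caerulein peaks here measured 9888 and 2869 bp, with scores above those of 99.8% and 81.0% of their list. The wider one scored 3201.93, just past 3100, where scores pile up. Of the post-caerulein list, 85.0% scored below 3100, so the 99.8% is not a measure of strength. Within 100 kb, 73.4 kb were covered in untreated and 45.2 kb in post-caerulein spheroids, a log2 difference of -0.69. The difference lay far from the gene, on the side of lower coordinates, with 39.3 kb in untreated and 12.6 kb in post-caerulein spheroids. On the other side it was 24.7 and 23.9 kb. The window had 4 untreated-only peaks, each scoring above the median of the untreated list, and 0 post-caerulein-only peaks. They fell in a 49.159 kb stretch without post-caerulein peaks around Ifitm3 and Ifitm6, genes of interferon-induced membrane proteins, and the strongest, of 7947 bp with a score of 3100 (141004691 to 141012637), covered Ifitm3. All lay over 50 kb from Sigirr, and within 50 kb the log2 difference was -0.27.

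Among all genes, the family stood on both sides of the middle. Covered length was higher after caerulein at 5 of 10 family genes and lower at 5, with a median log2 difference of 0.18, against 0.015 over the 18332 protein-coding genes with a peak in the window. Il1r2 was at least 2-fold higher on the scale with 1 kb added, as were 2.43% of all genes, and no family gene was at least 2-fold lower, as 2.23% of all genes were. Sigirr was at -0.69, and 4.62% of genes were lower. List-only peaks leaned to the post-caerulein list at 5 family genes, against 35.8% of all genes, and to the untreated list at 4, against 32.0%. The windows of neighbouring genes overlap, so these counts are not independent. Start sites were marked in both lists for 5 of the 9 family genes with a listed start, against 53.2% of genes. Sigirr, read by its gene ends, was marked in both lists as well, and Il1b, Il1r2 and Il1rl1 in neither.

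**Figure D3:**
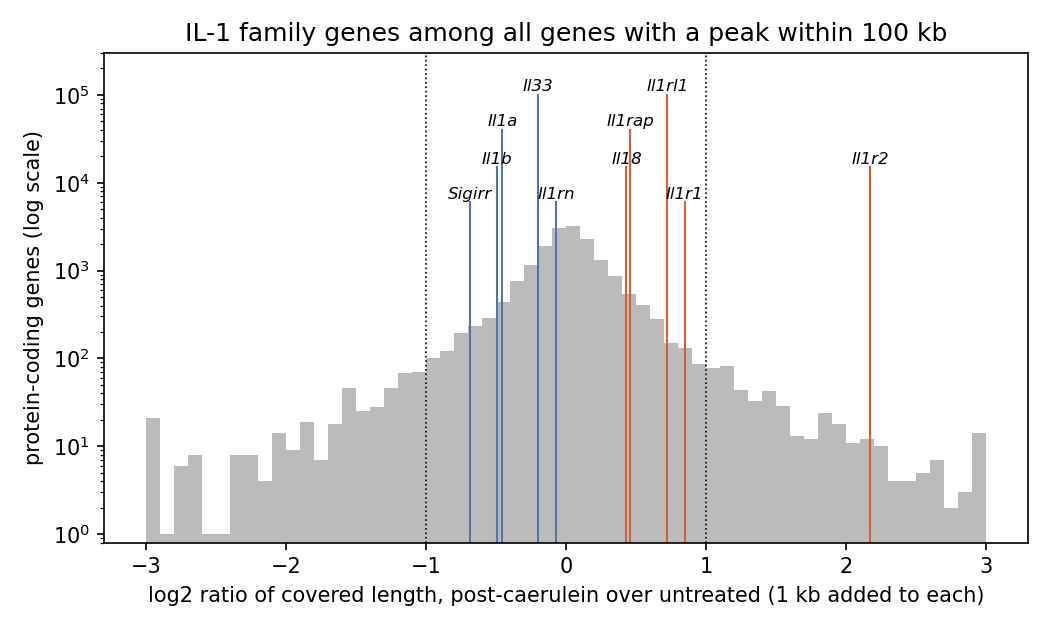
Number of protein-coding genes (log scale) by log2 ratio of covered length, post-caerulein over untreated, with 1 kb added to each value; the outermost bars also hold genes beyond -3 and 3. Lines mark the 10 family genes and dotted lines the 2-fold limits; Il1r2, at 2.17, is the only family gene beyond a limit.

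Counted once over the 7 loci, 18 of 88 post-caerulein peaks (20.5%, exact 95% binomial interval 12.6 to 30.4) and 10 of 79 untreated peaks (12.7%, 6.24 to 22.0) had no overlap in the other list. The shares in the whole lists were 17.5% and 14.3%, inside these intervals. The intervals reflect the number of peaks and nothing else. Of the 18 post-caerulein-only peaks 0 reached the median score of their list, whereas 6 of the 10 untreated-only peaks did: 4 near Sigirr, the peak over the Il1a start and the one at the edge of the Il33 window. Among list-only peaks genome-wide, 2.69% did in the post-caerulein list and 5.63% in the untreated list. The 4 near Sigirr lie in a single stretch and are not independent. Total covered length was 316.3 kb in untreated and 310.0 kb in post-caerulein spheroids, a log2 difference of -0.029 that turned to 0.088 within 50 kb.

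Peaks that matched 1 to 1 were more often wider in untreated spheroids. Of 53 such pairs, 31 (58.5%) were wider in untreated and 22 (41.5%) in post-caerulein spheroids, against 44.5% and 55.4% of 27197 pairs in the whole lists. Median widths were 2982 bp untreated and 2801 bp post-caerulein near the family, and 2601 and 2704 bp over all pairs. By locus, the pairs wider in untreated spheroids numbered 4 of 4 at Il33, 6 of 7 at Il1a and Il1b, 6 of 7 at Sigirr, 6 of 11 at Il1rn, 7 of 16 at Il18, 2 of 6 at the receptor cluster and 0 of 2 at Il1rap. Neighbouring peaks share a locus, so the pairs are not independent.

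**Figure D4:**
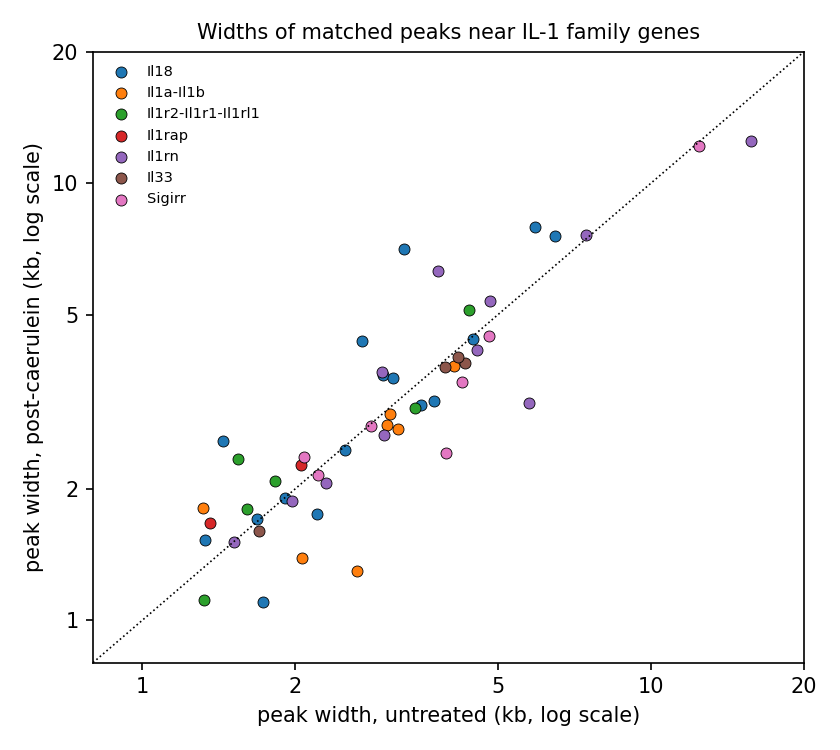
Width in kb (log axes) of each of the 53 peaks near family genes that matched 1 to 1, in the untreated list (x) and the post-caerulein list (y), coloured by locus. The dotted line marks equal width; 31 points lie below it and 22 above.

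Other genes of the pathway lay close to the background in covered length, and their list-only peaks leaned to the untreated list at a smaller share of genes. Of 60 listed symbols 55 are used in the annotation, and 53 of these genes had a peak within 100 kb. Their median log2 difference was 0.07, with 1 gene at least 2-fold higher and 1 at least 2-fold lower, against 2.43% and 2.23% of all genes. List-only peaks leaned to the post-caerulein list at 22 genes (41.5%, against 35.8% of all genes) and to the untreated list at 9 (17.0%, against 32.0%), a difference that was not tested. Starts (gene ends where no start is listed) were marked in both lists at 41 of 55 genes and in neither at 9. Of all genes with a listed start, 53.2% were marked in both lists. The untreated list alone marked Il1f8 and Nlrp6, against 0.978% of genes with a listed start. The post-caerulein list alone marked Il1rl2, Casp8 and Pycard, against 1.69%.

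Among the other ligand and receptor genes, 0 of 10 passed 2-fold in either direction. The extremes were Il1rapl2 (3.17 kb untreated, 6.68 kb post-caerulein, log2 0.88) and Il18r1 (0.64) on the higher side, and Il1f8 (-0.26) and Il18rap (-0.10) on the lower. Il1rl2, the IL-36 receptor gene between Il1r1 and Il1rl1, had an 826 bp post-caerulein-only peak with a score of 50.07 near its start. The peak lay within 1 kb of the start but did not cover it. The windows of Il1f5, Il1f6, Il1f9, Il1f10, Il1rl2, Il18r1 and Il18rap share peaks with those of the family genes above.

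Of 12 genes for cytokine processing with a peak, 1 was at least 2-fold lower. This was Nlrp6, an inflammasome sensor gene, with 67.5 kb in untreated and 24.4 kb in post-caerulein spheroids (log2 -1.43) and 9 untreated-only peaks, of which 3 also lie in the Sigirr window. Aim2, another sensor, was at -0.55, the calpain gene Capn2 at 0.35 and the pore-former gene Gsdmd at 0.14. Casp1, which encodes the protease for IL-1 beta and IL-18, had 13.9 kb in untreated and 14.7 kb in post-caerulein spheroids, and its start was unmarked in both lists; it was named after its values were seen.

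Of 16 signalling genes, 1 was at least 2-fold higher. Irak1bp1, which encodes a binding partner of the kinase IRAK1, had 1.803 kb in untreated and 6.549 kb in post-caerulein spheroids (log2 1.43). Irak4, the kinase gene of the receptor complex, was at 0.82, and all 5 of its list-only peaks were post-caerulein-only. Myd88, which encodes the adaptor of the receptors, was at -0.31, and the TAK1-binding gene Tab1 at -0.10. The start (for Tab1 a gene end) was marked in both lists at 15 of the 16 genes, Peli2 being unmarked in both. Of 15 NF-kB genes, 0 passed 2-fold and all 15 were marked in both lists. Among these, Ikbkb, Nfkb1, Relb and Nfkbiz were read by their gene ends. Of all genes with a listed start, 53.2% were marked in both lists. The inhibitor genes Nfkbie and Tnfaip3 were both at 0.38, and the subunit genes Nfkb2 and Rela both at -0.21.

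Markers of duct epithelium carried the mark in both conditions: all 8 duct markers, among them Krt19 and Epcam, were marked in both lists, against 1 of 6 acinar markers. Of all genes with a listed start, 53.2% were marked in both lists. Markers without a listed start, among them Krt19, were read by their gene ends. Covered length within 100 kb summed to 649.0 kb in untreated and 616.2 kb in post-caerulein spheroids over the duct markers, and to 185.2 and 198.7 kb over the acinar markers. These sums and those below add the windows of single genes. Sequence in overlapping windows, as at Krt8 and Krt18 or at S100a8 and S100a9, is therefore counted more than once. List-only peaks leaned to the untreated list at 6 of the 8 duct markers, against 32.0% of all genes. The windows of Krt8 and Krt18 overlap, so these markers are not independent. At Krt19 the list-only peaks were 6 untreated-only and 0 post-caerulein-only, with 73.8 kb covered in untreated and 53.6 kb in post-caerulein spheroids. Several IL-1 family genes are also used by myeloid cells. Of 13 myeloid markers, 3 were marked in both lists (Spi1, Cd68 and Cd14), Ptprc after caerulein alone, and 9 in neither, including Csf1r, Adgre1, Itgam, S100a8, S100a9 and Ly6g. Summed covered length within 100 kb of the myeloid markers was 331.2 kb in untreated and 349.3 kb in post-caerulein spheroids. Single myeloid markers went in both directions. At Ptprc, the common leukocyte antigen gene, it was 5.47 and 11.1 kb, and at Spi1 24.3 and 13.7 kb. With 1 kb added to each value, 0 of the 13 were at least 2-fold higher and 0 at least 2-fold lower. The shares of all genes were 2.43% and 2.23%. Of 8 fibroblast markers 0 were marked in either list, and their sums were 48.8 kb in untreated and 73.1 kb in post-caerulein spheroids. Tcf21 was the only one at least 2-fold higher (8.19 and 17.9 kb), as 2.43% of all genes were. Of 6 endothelial markers 0 were marked, with sums of 102.2 and 85.5 kb. With 1 kb added to each value, 3 of the 5 with a peak in their window were at least 2-fold lower, as 2.23% of all genes were: Kdr (15.1 and 6.29 kb), and Cdh5 and Tek, which had peaks in the untreated list alone. Of 7 lymphoid and mast cell markers Gata3 was marked in both lists, Kit in the untreated list alone and 5 in neither, with sums of 135.9 and 116.0 kb. Kit was the only one at least 2-fold lower (16.7 and 3.48 kb). The part of other cell types in the differences at Il1r2 and the other family genes was not tested.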

How the data were processed

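H3K27ac chromatin immunoprecipitation with sequencing was analysed in 1 untreated and 1 post-caerulein spheroid library; an input library was not used here. Per the submitters' processing notes, Trimmomatic 0.38, Bowtie2 2.2.6, SAMtools and MACS 1.4 were used with GRCm38 (mm10); the control and options given to the caller are not given in the sources used here. The deposited lists give 1 score per peak, which no header defines. It is the authors' own value, and was used only to place a peak within its list (median 681.38 untreated, 526.37 post-caerulein).

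Peaks overlapping by at least 1 bp counted as shared, checked with bedtools 2.31.1. Covered length was clipped to the window. Start sites came from the RefSeq promoter table (GRCm38.p6), gene bodies from the RefSeq gene table. Overlap and covered length were tested on simulated data. No significance test was run, and intervals are Clopper-Pearson (scipy 1.17.1, Python 3.11.15). All 10 family genes are named; pathway groups name the 2 genes with the largest log2 difference in each direction. The members and lists were chosen with earlier results of these data known. Alternatives varied the window, the assignment, the score limit, the overlap and merging.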

Additional observations from a re-analysis of the deposited data

How the results depend on the processing

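List-only peaks at or above their own list's median score, with overlap still judged on the full lists, numbered 0 post-caerulein-only and 6 untreated-only near the family. The difference thus reversed from 8 to -6. With every peak below that median left out of covered length, 0 family genes were at least 2-fold higher and 1 lower. There were then 2 pathway genes higher, and Il1r1 reversed to -0.025. Within 50 kb, 3 untreated-only peaks were counted and the log2 difference over all loci turned from -0.029 to 0.088. Within 10 kb these values were 5 post-caerulein-only and 1 untreated-only peaks (difference 4) and 0.082, with 3 pathway genes higher and 2 lower. Il1rn reversed to 0.11 within 50 kb and 0.12 within 10 kb. Counting only peaks nearest to a family gene gave 8 post-caerulein-only and 2 untreated-only peaks and 0.023 over all loci, and Il18 reversed to -0.056. Merging within 1 kb gave 11 post-caerulein-only peaks (difference 4). A fold limit of 1.5 gave 3 family genes higher and 1 lower. Shares of all genes past a fold limit are given here only for 2-fold within 100 kb with all peaks. The counts of genes higher or lower under other settings therefore have no background beside them and are not read as a result. For all changes in this section, the cause was not tested. Of 58 recomputed ratios of single family genes, 48 moved by less than 1.5 times, 6 kept their sign but moved further and 4 reversed, as given above. The limit of 1.5 times applies to the ratio, so a small difference can vanish and still be among the 48. Within 10 kb, for example, Il18 went from 0.43 to 0.0077 on the log2 scale. No ratio was recomputed where no peak was left, at Il1b within 10 kb and at Il1r2 without the peaks below the median score. Of 80 recomputed differences between a gene's post-caerulein-only and untreated-only counts, 42 stayed within 1.5 times, 38 moved further, such as Il18 from 5 to 0 within 10 kb and Il1rl1 from 3 to 0 within 50 kb, and 0 changed sign. No paired analysis was possible because with 1 library per condition there are no pairs, and leaving out a library would remove a condition. Read depth, which bears on which weak peaks are called, is unknown.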
